A study of Ursus arctos with 12 samples.

Results

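The smooth muscle and pericyte genes are 10 genes of the cells that wrap blood vessels, taken by gene symbol from the table of reads per gene: ACTA2, TAGLN, CNN1, MYH11, MYLK, RGS5, CSPG4, MCAM, NOTCH3 and KCNJ8. All 10 were found among the 30249 genes of the table, and 10 of 10 were among the 17290 genes tested, with at least 30 reads summed over the libraries. The libraries were made from poly-A RNA of the vastus lateralis, a thigh muscle, of 6 free-ranging brown bears (Ursus arctos) aged 2 to 3 years, each biopsied under anesthesia during winter hibernation and again, within the same year, in its active period in summer. This gave 6 winter and 6 summer libraries, paired by animal. The question was how the muscle transcriptome differed between hibernation and the active period. Between 20191068 and 27283155 reads were counted on genes in a summer library and between 16742406 and 32140160 in a winter library.

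Smooth muscle cells form the walls of arteries and arterioles and set vessel diameter. They contract when calcium-bound calmodulin activates myosin light chain kinase, which phosphorylates the light chain of smooth muscle myosin and lets it pull on actin filaments. Pericytes lie on capillaries, share the basement membrane with the endothelium and are held there by PDGF signals from it. Both are called mural cells, and their identity depends on Notch signaling from the endothelium and, for the contractile genes, on the serum response factor SRF with its cofactors of the myocardin family.

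The biopsies were bulk tissue, so fewer cells of a type and less RNA per cell cannot be told apart. The tissue was skeletal muscle by its markers, with the creatine kinase gene CKM at a median of 66210 CPM in summer and 69970 in winter. CPM are reads scaled to a common library size with edgeR's TMM factors, and they do not correct for gene length, so levels are compared within a gene. Each of the 10 genes had reads in every library, from 7 to 136 for CNN1 up to 1838 to 10488 for RGS5. The genes are not exclusive to mural cells: MCAM and MYLK are also known in endothelium, ACTA2 and TAGLN in activated fibroblasts, and CSPG4 in glia. The winter library of bear 1509 stood apart from the other winter libraries in RGS5 and also beyond the 10 genes. It had the fewest reads of the 12 libraries, 16742406, and the most genes with a read, 19512. On the second principal component of log2 CPM, with 12.55% of the variance, it lay at −41.93, against −7.478 to 25.78 for the other winter libraries. On the first, with 52.74%, the winter libraries of bears 1509 and 1511 lay at 19.66 and 16.71. The remaining winter libraries lay there at 41.39 to 53.82. Results are given without the winter library of bear 1509 where it bears on them.

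In winter, 6 of the 10 genes fell at an adjusted p below 0.05 in edgeR's quasi-likelihood test, beside 19.9% of all genes tested. These were RGS5, MCAM, CNN1, KCNJ8, MYLK and CSPG4, the genes of calponin, the contractile kinase and most of the pericyte markers. Those not called were the actin, transgelin and myosin genes ACTA2, TAGLN and MYH11 and the receptor gene NOTCH3. None was called higher, against 19.6% of all genes, and raw p values below 0.05 were reached by 8 lower and 0 higher genes. DESeq2 and limma voom each called 7 lower and 0 higher. Of all 17290 genes tested, DESeq2 called 3621 lower and 3530 higher, and limma voom 3550 and 3312. The median log2 fold change over the 10 genes was −0.88, against −0.0021 over all genes tested.

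Stricter limits, an adjusted p under 0.01 and a winter level under 0.77 times that of summer, left RGS5, MYLK, KCNJ8 and MCAM, 4 of 10 beside 12% of all genes. For the same 4 genes every winter library lay below every summer library, which held for 8.21% of all genes, and the opposite held for 0 of 10 beside 9.12%. All 6 bears were lower in winter for 6 of the 10 genes, those called, beside 19.0% of all genes, and all bears were higher for 0 of 10 beside 18.4%. For CNN1 this count includes bear 1317, whose change was only −0.003478 on the log2 scale. Without the winter library of bear 1509 the same 6 genes were called. Without bear 1305 there were 9 calls, beside 2715 lower of 16860 genes tested. Without bear 1509 or bear 1511 there were 5, beside 3300 of 16764 and 3177 of 16968.

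**Figure D1:**
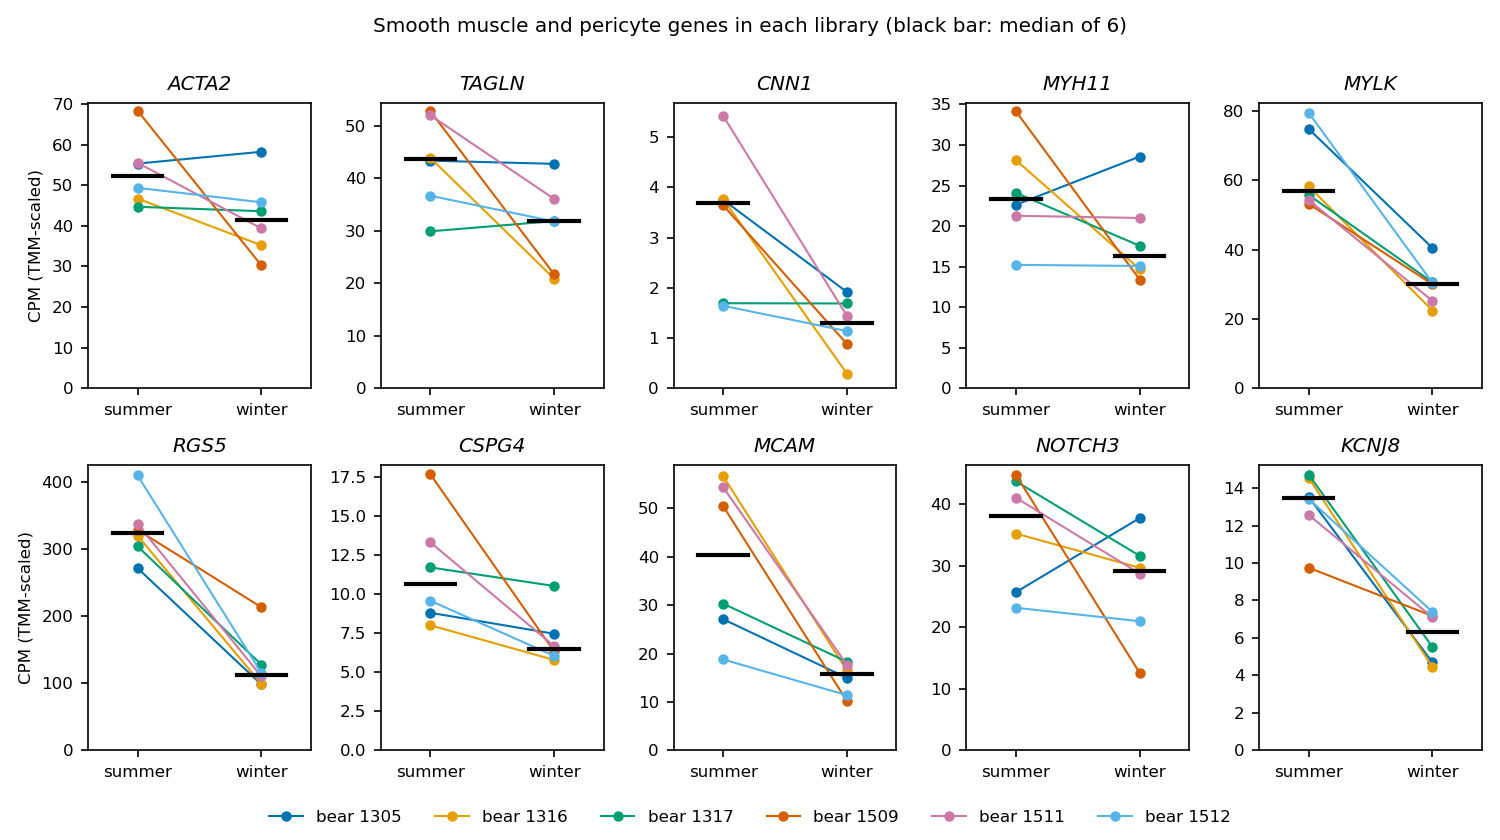
Level of each of the 10 genes in CPM (linear axis from 0) in the summer and winter library of each bear; lines join the libraries of a bear and black bars are medians of 6. Winter lay wholly below summer for MYLK, RGS5, MCAM and KCNJ8 and overlapped summer for the other genes.

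The first group of genes builds or drives the contractile apparatus. MYLK encodes the myosin light chain kinase of smooth muscle and, from other starts in the same gene, a longer non-muscle kinase and the short protein telokin, which the counts do not separate. It lay at 53.2, 57.1 and 79.5 CPM (lowest, median and highest library) in summer and at 22.4, 30.2 and 40.5 in winter. The seasons did not overlap, and the gene was lower in 6 of 6 bears, with changes between −1.38 and −0.82 on the log2 scale. In edgeR the log2 fold change was −1.07 ± 0.15 (SE) with an adjusted p of 0.000127, a winter level 0.477 times that of summer. The winter spread between bears was the smallest of the 10 genes, an SD of 0.29 log2 CPM.

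CNN1 encodes calponin, a protein on the thin filaments that restrains the myosin ATPase and marks fully differentiated smooth muscle. It was the least sequenced of the 10 genes, at 1.64, 3.70 and 5.43 CPM in summer and 0.294, 1.29 and 1.92 in winter. Most winter libraries lay below most summer ones, but the groups overlapped, and bears 1317 and 1512 had the lowest summer levels. EdgeR gave a log2 fold change of −1.44 ± 0.39 (SE), with an adjusted p of 0.0103. Bear 1316, with 7 reads in winter, changed by −3.34 on the log2 scale, and bear 1317 stayed at 1.69 CPM in both seasons.

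ACTA2 encodes the alpha actin of smooth muscle. It stood at 44.7, 52.3 and 68.4 CPM in summer and 30.2, 41.5 and 58.2 in winter. The change of −0.34 ± 0.15 (SE) on the log2 scale was not called by edgeR, at an adjusted p of 0.0873. The seasons overlapped, and 5 of 6 bears were lower in winter. ACTA2 was called without bear 1305 (log2 fold change −0.46, adjusted p = 0.0352) and with library totals in place of TMM (−0.43, adjusted p = 0.0406), whereas without bear 1509 the change was −0.17 (adjusted p = 0.338). Its coding sequence is nearly that of the skeletal actin gene ACTA1, which had 109988 to 715636 reads per library against 548 to 1557 for ACTA2. How the authors' counting divided reads that match both was not tested, so the level of ACTA2 is uncertain.

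TAGLN encodes transgelin (SM22), an actin-binding protein of smooth muscle. It lay at 29.9, 43.7 and 52.8 CPM in summer and at 20.9, 31.8 and 42.8 in winter. At a log2 fold change of −0.48 ± 0.19 (SE), the adjusted p of 0.0525 was just above the limit. With the bear as a replicate block in edgeR the adjusted p was 0.0496 and the gene was called, as it was in DESeq2 (0.0417) and limma voom (0.0443). Leaving out a bear moved the adjusted p both ways, to 0.0357 without bear 1305 and 0.0411 without bear 1317, but to 0.191 without bear 1509 (log2 fold change −0.32), 0.146 without bear 1316 and 0.0957 without bear 1511. Bears 1509 and 1316 changed by −1.28 and −1.07 on the log2 scale, and bears 1305 and 1317 differed by less than 0.1 between seasons.

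MYH11 encodes the heavy chain of smooth muscle myosin, the motor on which MYLK acts. It lay at 15.2, 23.4 and 34.2 CPM in summer and 13.4, 16.3 and 28.6 in winter. The seasons overlapped over most of their range. EdgeR gave −0.40 ± 0.21 (SE) on the log2 scale with an adjusted p of 0.144, a difference that did not stand out from the spread between libraries. Single bears ran from −1.34 to 0.34, with bear 1305 higher in winter, and without that bear the log2 fold change was −0.60 (adjusted p = 0.0432). Without bear 1509 it was −0.19 (adjusted p = 0.483) and without bear 1316 −0.29 (adjusted p = 0.362).

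The second group of genes marks mural cells by their signaling and surface proteins. RGS5, a regulator of G-protein signaling that shortens the response of vascular receptors and is a standard pericyte marker, lay at 272, 325 and 410.4 CPM in summer. In winter it lay at 98.4, 113 and 214. No winter library reached the lowest summer library, and the gene was lower in 6 of 6 bears. On the log2 scale the difference was −1.37 ± 0.18 (SE), with an edgeR adjusted p of 9.03e-05, or 2.58-fold lower. The highest winter value belonged to bear 1509, and the other 5 winter libraries lay between 98.4 and 128 CPM. Leaving that library out gave −1.58 (adjusted p = 1.95e-06).

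KCNJ8 encodes Kir6.1, the pore of the ATP-sensitive potassium channel of mural cells, which hyperpolarizes them and relaxes the vessel. It lay at 9.75, 13.5 and 14.7 CPM in summer and 4.45, 6.31 and 7.39 in winter, with no overlap. The winter values formed 2 sets of bears, 4.45 to 5.52 CPM in bears 1305, 1316 and 1317 and 7.10 to 7.39 in bears 1509, 1511 and 1512. EdgeR put the change at −1.11 ± 0.16 (SE) with an adjusted p of 0.000154, and the bears ranged from −1.69 to −0.44.

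MCAM (CD146) is an adhesion molecule of the immunoglobulin family on mural cells and endothelium. It varied most between bears in summer after CNN1, at 18.8, 40.4 and 56.6 CPM, and lay at 10.2, 15.7 and 18.3 CPM in winter. The seasons nearly met, with bear 1512 at 18.8 CPM in summer and bear 1317 at 18.3 in winter. Its change was −1.42 ± 0.26 (SE) on the log2 scale, with an edgeR adjusted p of 0.000845, and all bears were lower in winter, 6 of 6, with bear 1509 at the extreme.

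CSPG4 encodes NG2, a chondroitin sulfate proteoglycan on the surface of pericytes. It lay at 8.01, 10.7 and 17.7 CPM in summer and 5.80, 6.51 and 10.5 in winter. All 6 bears were lower in winter (6 of 6), though the seasons overlapped, with bear 1317 the highest in winter. EdgeR gave −0.69 ± 0.21 (SE) and an adjusted p of 0.0169. This was the least stable of the 6 calls, with an adjusted p of 0.0697 without bear 1509 and 0.0589 without bear 1511.

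NOTCH3, the Notch receptor of mural cells, which receives signals from the endothelium, lay at 23.2, 38.1 and 44.7 CPM in summer and 12.6, 29.2 and 37.7 in winter. After CNN1 it had the widest disagreement between bears, with −1.82 on the log2 scale in bear 1509 and 0.55 in bear 1305. The change of −0.40 ± 0.24 (SE) had an edgeR adjusted p of 0.19. It was not called under any of 15 alternatives, whose adjusted p ran from 0.0742 to 0.514.

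**Figure D2:**
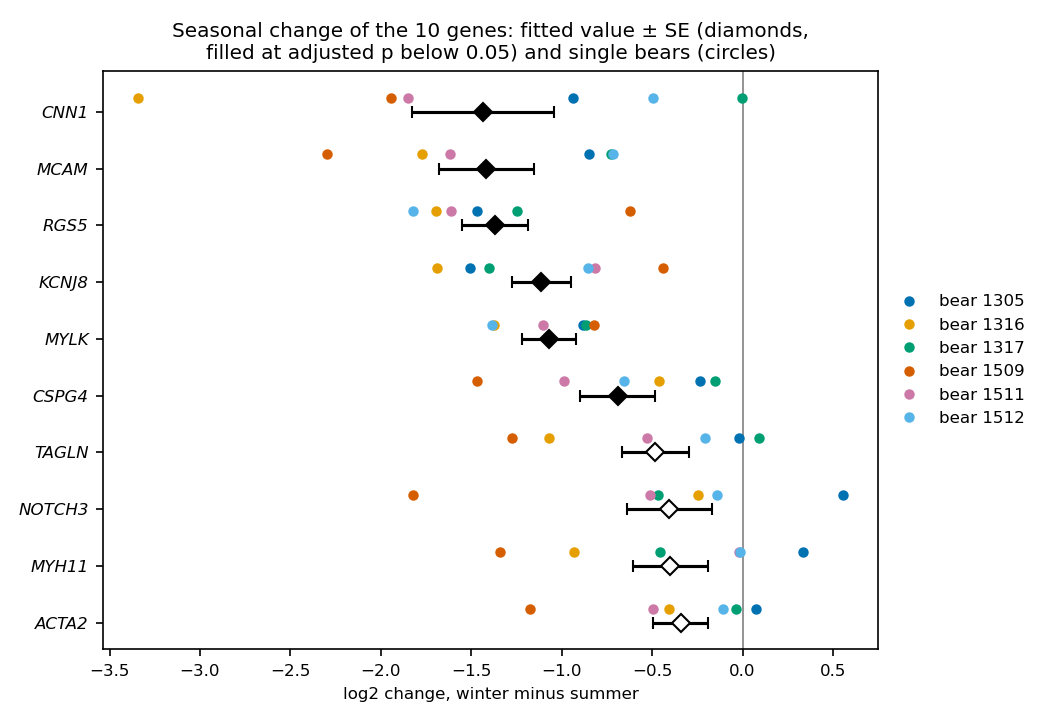
Change of each gene on the log2 scale, winter minus summer: diamonds with bars are edgeR's log2 fold change ± standard error, filled at an adjusted p below 0.05, and circles are the 6 bears. The 6 filled genes lie at −1.44 to −0.69 and the 4 open ones at −0.48 to −0.34, with single bears on both sides of 0 for each of the open genes.

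The bears did not share 1 ordering. In winter the library of bear 1305 was the highest of the 6 for 6 genes (ACTA2, TAGLN, CNN1, MYH11, MYLK and NOTCH3). Bear 1316 was the lowest for 5 genes (TAGLN, CNN1, MYLK, CSPG4 and KCNJ8) and bear 1509 for 4 (ACTA2, MYH11, MCAM and NOTCH3). Bear 1509 had the most negative change of the 6 bears in 6 genes (ACTA2, TAGLN, MYH11, CSPG4, MCAM and NOTCH3) and the least negative in MYLK, RGS5 and KCNJ8. The median change of the 10 genes within a bear ran from −1.31 in bear 1509 to −0.46 in bear 1317, while the median over all genes tested was between −0.026 and 0.0068 in each bear.

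Some members varied together beyond the season. After each season's mean was subtracted, the log2 CPM of ACTA2 and TAGLN correlated at 0.843, those of TAGLN and CNN1 at 0.866 and those of MYH11 and NOTCH3 at 0.716 over the 12 libraries, in which each bear appears in both seasons. RGS5 and NOTCH3 correlated at −0.708, but at −0.283 without the winter library of bear 1509. These values describe the libraries and were not tested. Among 10344 named genes whose log2 CPM averaged 1 or more, those most like MYH11 by this measure were TRIM27 (0.887), BPI (0.878), SERHL2 (0.842), SOX13 (0.839) and DNAJC30 (0.838). Those most like RGS5 were SNAP91 (0.925), CDC42 (0.914), SS18 (0.913), PRPS1 (0.91) and GNAO1 (0.907), and without the winter library of bear 1509 their correlations were 0.6 to 0.788. No other of the 10 genes was among these.

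The wider contractile apparatus was examined through 9 further smooth muscle genes, of which edgeR called 6 lower, with a median log2 fold change of −0.81. None was higher there, nor among the regulators of light chain phosphorylation, the transcription factors, the other mural markers or the Notch genes described next. Among all genes tested, 19.9% were called lower and 19.6% higher, and the counts of this and the following lists stand beside those shares with no test of the difference. In each of these 5 lists the count of higher genes was 0 in edgeR and 0 by raw p values under 0.05. It was also 0 in DESeq2 and limma voom, all without the replicate block. With the block, edgeR and DESeq2 each called 1 Notch gene higher and none in the other lists. Like the 10 genes, the genes of these lists are not all exclusive to mural cells. The bulk counts do not separate muscle fibres or other cells from them. MYL9, the regulatory light chain that MYLK phosphorylates, lay at a median of 30.7 CPM in summer and 10.3 in winter. It fell by 1.55 on the log2 scale (SE 0.18, adjusted p = 4.05e-05) with no overlap of the seasons. ITGA8, the alpha-8 integrin of smooth muscle, fell by 1.62 (SE 0.23, adjusted p = 0.000142). LMOD1, a nucleator of smooth muscle actin filaments, was at −1.59 (adjusted p = 0.0147), a call lost on leaving out bear 1316 (0.0631) and in limma voom (0.0859). ACTG2, the gamma actin of smooth muscle, was not called at −1.41 ± 0.67 (SE, adjusted p = 0.107), and it was higher in winter in 2 of 6 bears.

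The regulators of light chain phosphorylation gave 1 lower gene of 10 (19.9% of all genes), and limma voom gave 0. It was PPP1R14A, the inhibitor CPI-17 of myosin phosphatase, at −1.43 ± 0.53 (SE, adjusted p = 0.0436). It had only 3 to 35 reads per library, and the call was lost without bear 1305 (adjusted p = 0.0862), 1316 (0.144), 1317 (0.052) or 1509 (0.115), and at 0.0572 without only the winter library of bear 1509. The widely expressed RHOA, ROCK1, ROCK2 and the phosphatase subunit PPP1R12A lay between −0.16 and 0.14 and were not called. Among the factors of smooth muscle transcription, 3 of 7 were lower (19.9% of all genes), with a median of −0.53. FHL2, a LIM-domain cofactor, fell by 1.95 (SE 0.39, adjusted p = 0.00151), the SRF cofactor MRTFA by 0.95 (SE 0.15, adjusted p = 0.000286) and TEAD1, a partner of YAP, by 0.53 (SE 0.09, adjusted p = 0.000655). SRF itself was at 0.10 (adjusted p = 0.492), and MYOCD, the myocardin gene, with 6 to 76 reads, at −0.81 (adjusted p = 0.109).

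Of 16 genes of vascular tone, 5 were lower and 2 higher, with a median log2 fold change of −0.19, beside 19.9% lower and 19.6% higher over all genes. TBXA2R, the thromboxane receptor, fell by 1.76 (SE 0.40, adjusted p = 0.00336), KCNMB1, the smooth muscle subunit of the calcium-activated BK channel, by 1.3 (SE 0.32, adjusted p = 0.00588), and ADRA1A, an alpha-1 adrenergic receptor, by 1.03 (SE 0.28, adjusted p = 0.00952). These 3 genes had few reads, at most 59 in a library. RGS4, a relative of RGS5, was higher at 0.77 ± 0.23 (SE, adjusted p = 0.0149), a call lost without bear 1316 (0.0603). KCNMA1, the pore of the BK channel, was higher at 0.54 (adjusted p = 0.0273), a call lost without bear 1305 (0.0915), 1316 (0.0966) or 1509 (0.0585) and with library totals (0.0905).

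Of 14 other mural markers tested, 6 were lower by edgeR, and their median log2 fold change was −0.37. None of the 6 passed the stricter limit (0 of 14). PDGFRB, the receptor that holds pericytes on capillaries, lay at a median of 101 CPM in summer and 81.6 in winter, at −0.35 ± 0.14 (SE, adjusted p = 0.0605). With the bear as a replicate block its adjusted p was 0.0425, and with library totals 0.0354. HIGD1B, a pericyte marker with 18 to 98 reads, was at −0.30 (adjusted p = 0.421). GJA4, the connexin 37 gene, was at −1.04 (adjusted p = 0.0123, 0.0507 without bear 1509). CD248, endosialin of mural cells and fibroblasts, was at −1.55 (adjusted p = 0.0291) and was not called without bear 1305 (0.105), 1316 (0.0754), 1317 (0.0826) or 1509 (0.0699). NDUFA4L2, at −0.84 (adjusted p = 0.0449), was not called with the replicate block (0.0952) or without any of the bears but 1317, at 0.053 to 0.175.

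In the Notch pathway, 5 of 12 genes were lower, with a median of −0.35. NOTCH4, the receptor of endothelium, fell by 1.37 (SE 0.15, adjusted p = 2.69e-05), DLL1, a ligand, by 0.99 (SE 0.23, adjusted p = 0.00447) and the target gene HEY1 by 0.95 (SE 0.20, adjusted p = 0.00211). HEYL, a target in mural cells downstream of NOTCH3, was at −0.49 (adjusted p = 0.0181), a call lost without bear 1316 (0.077) or bear 1317 (0.0579). JAG1, the ligand that activates NOTCH3, was at 0.12 (adjusted p = 0.449). HES1, a target in many cell types, had a change of 0.37 ± 0.21 (SE, adjusted p = 0.182), above 0 in 6 of 6 bears, and only the fits with the replicate block called it (0.0157 in edgeR). HEY2, with 8 to 41 reads per library, was not called at 0.36 (adjusted p = 0.526).

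**Figure D3:**
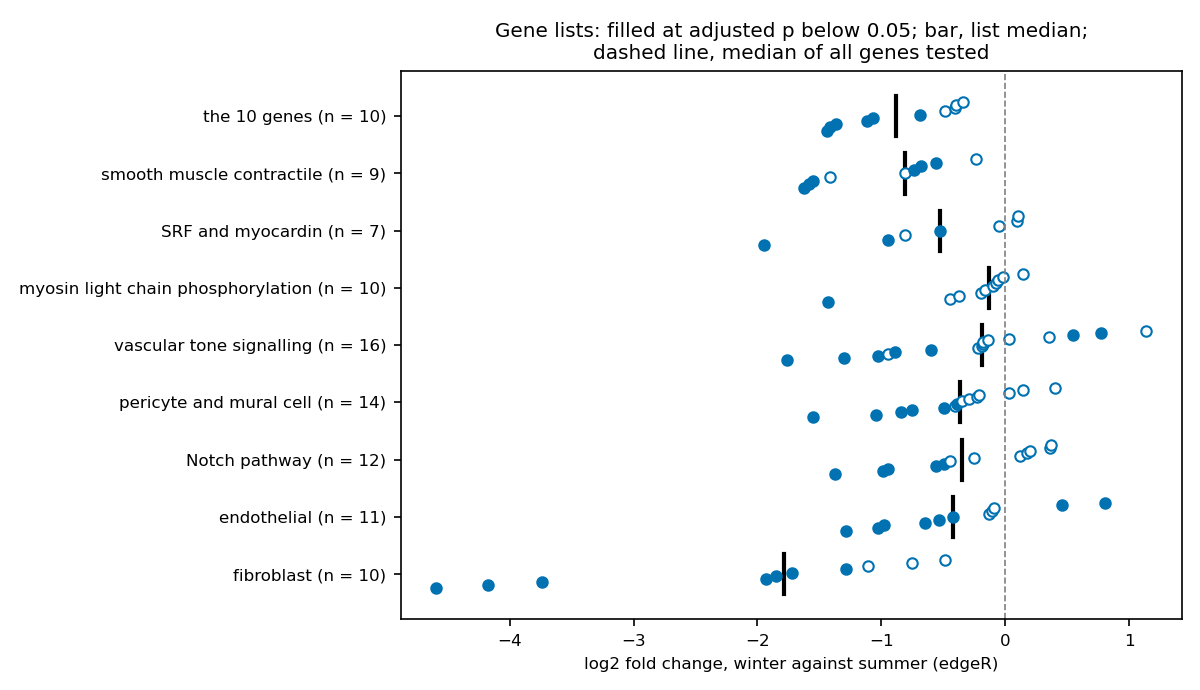
Log2 fold change of each tested gene in the 10 genes and in 8 related lists, winter against summer; filled circles passed an adjusted p below 0.05, bars are list medians and the dashed line is the median of all genes tested. The medians lie at −0.88 for the 10 genes, −0.81 for further contractile genes, −0.37 for other mural markers, −0.42 for endothelial genes and −1.79 for fibroblast genes.

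The seasonal change of a member (log2 CPM in winter minus summer, within a bear) was also set against that of a relative or partner gene, for 10 pairs, by a two-sided exact permutation test that flips the sign of the difference between the changes within a bear. These are differences of changes, not of levels. The pairs were chosen after values had been seen, so their counts of bears and p values describe the chosen pairs and are not independent support. The smallest p this test can give with 6 bears is 0.03125, and after Benjamini-Hochberg adjustment over the 10 pairs 0 of them passed 0.05. The change of KCNJ8 was below that of ABCC9, which encodes SUR2, its partner subunit in mural cells and also a subunit in muscle fibres, in 6 of 6 bears, by −1.13 ± 0.55 on the log2 scale (SD, n = 6 bears, exact permutation p = 0.03125, adjusted 0.104). ABCC9 itself lay at a median of 160.8 CPM in summer and 180.0 in winter, but was lower in winter in 4 of 6 bears. Its edgeR log2 fold change of 0.03 (adjusted p = 0.876) was negative with library totals, without bear 1316 and without bear 1509. KCNJ11, the pore subunit of the muscle fibre channel, was at 0.43 (adjusted p = 0.112), and the change of KCNJ8 was below that of KCNJ11 in 5 of 6 bears (exact permutation p = 0.0625, adjusted 0.156). Without bear 1509 KCNJ11 was called higher, at an adjusted p of 0.00973.

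The change of RGS5 was below that of RGS4 in 6 of 6 bears, by −2.22 ± 0.43 (SD, n = 6 bears, exact permutation p = 0.03125, adjusted 0.104). RGS2, another relative, was not paired with it and was lower in winter in 6 of 6 bears, at −0.95 (edgeR adjusted p = 0.068). The changes of TAGLN and TAGLN2, the latter a widely expressed transgelin, differed the other way in 6 of 6 bears, by 0.67 ± 0.67 (SD, n = 6 bears, exact permutation p = 0.03125, adjusted 0.104), with TAGLN2 at −1.23 (adjusted p = 0.00315). The changes of MYLK and MYLK2, the kinase of skeletal muscle myosin, differed by 0.07 ± 0.64 (SD, n = 6 bears, exact permutation p = 0.812), each being lower in winter, with MYLK2 at −1.08 ± 0.25 (SE, adjusted p = 0.00346). Its relative MYLK4, also known from striated muscle, was at −2.35 ± 0.61 (SE, adjusted p = 0.00784). MYLK3, a further relative, was not called at −0.61 ± 0.43 (SE, adjusted p = 0.281), and it was higher in winter in 3 of 6 bears. The remaining pairs, ACTA2 with ACTA1, MYH11 with MYH9, CNN1 with CNN2, CSPG4 with PDGFRB and NOTCH3 with NOTCH2, had exact permutation p values from 0.125 to 0.75.

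Markers of neighbouring cells moved in the same season. Of 11 endothelial genes tested, 6 were lower and 2 higher in winter, with a median log2 fold change of −0.42, and their summed level was 723.9 to 1034 CPM in summer and 523.5 to 600.9 in winter. VWF, the von Willebrand factor gene, fell by 1.28 (SE 0.15, adjusted p = 3.69e-05), CDH5, the cadherin of endothelial junctions, by 1.03 (SE 0.14, adjusted p = 0.000111) and KDR, a VEGF receptor, by 0.98 (SE 0.16, adjusted p = 0.000307). ERG, an endothelial transcription factor, rose by 0.46 ± 0.11 (SE, adjusted p = 0.00383), and the claudin gene CLDN5 was higher at 0.81 (adjusted p = 0.0295), a call lost without bear 1305 (0.0506), 1317 (0.107), 1511 (0.0957) or 1512 (0.0502). The fibroblast list gave 7 lower of 10, with a median of −1.79 and a summed level of 4276 to 11430 CPM in summer against 286.7 to 1741 in winter. Of the other lists, edgeR called 3 of 4 satellite cell genes and 3 of 6 macrophage and leukocyte genes lower, and 1 of 5 adipocyte genes lower and 1 higher. Over the alternatives the lower counts ran from 1 to 3 for satellite cell genes and 1 to 4 for macrophage and leukocyte genes. For adipocyte genes the higher count ran from 0 to 1. The summed level of the satellite cell genes was lower in winter in only 2 of 6 bears. Of 9 genes of muscle fibres, 2 were lower and 2 higher, with a median of −0.058. The part of these cells in the values of the 10 genes was not tested.

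The 10 genes were read against the endothelial genes within each bear, by subtracting the mean log2 change of the 11 endothelial genes, which was −0.68 to −0.15 in single bears. MYLK and MCAM were below that mean in 6 of 6 bears, by −0.72 ± 0.34 and −0.97 ± 0.53 (SD, n = 6 bears). RGS5 and KCNJ8 were below it in 5 of 6, by −1.05 ± 0.57 and −0.76 ± 0.66 (SD, n = 6 bears), the exception being bear 1509 for both. CNN1 was below it in 5 of 6 bears, at −1.07 ± 1.16, and CSPG4 in 5 of 6, at −0.30 ± 0.32 (SD, n = 6 bears), with bear 1317 the exception for both. ACTA2, TAGLN, MYH11 and NOTCH3 were below it in 3 of 6 bears each. These differences are a description and carry no test. The mean covers endothelial genes that ran from −1.28 for VWF to 0.81 for CLDN5 in edgeR's log2 fold change. VWF, CDH5 (−1.03) and KDR (−0.98) fell well below it, and 2 genes were called higher. A change below the mean is therefore not a change below each endothelial gene.

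**Figure D4:**
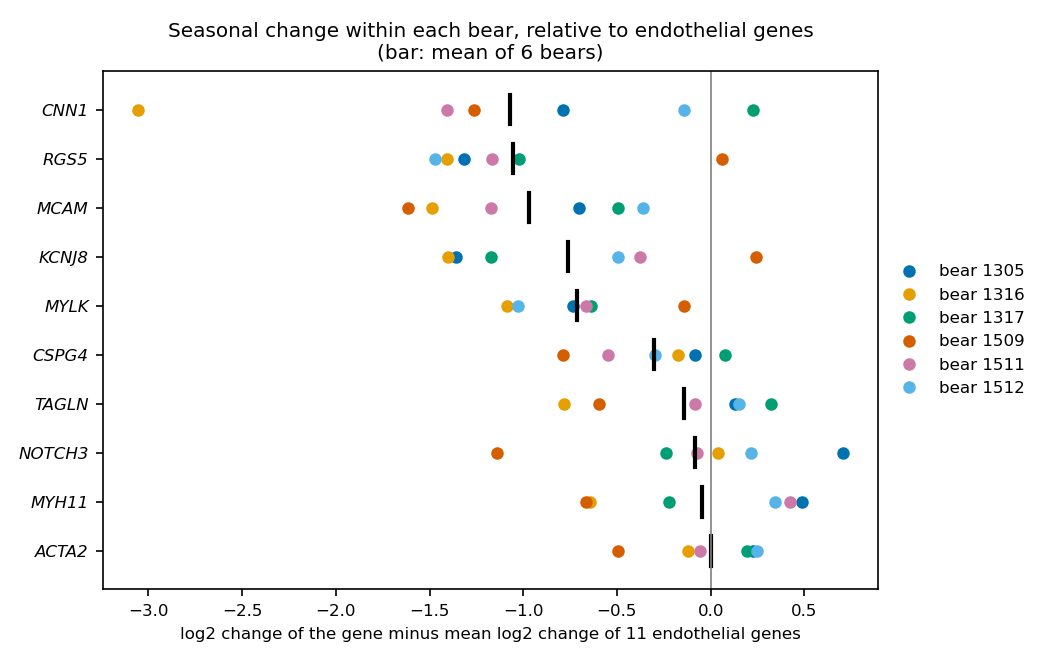
Log2 change of each gene from summer to winter within a bear, minus the mean log2 change of 11 endothelial genes in that bear; circles are the 6 bears and bars their mean. All 6 bears lie below 0 for MYLK and MCAM and 3 of 6 for ACTA2, TAGLN, MYH11 and NOTCH3.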

How the data were processed

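Poly-A RNA of 12 muscle biopsies was sequenced by the authors as stranded single reads of 50 bases, aligned to the ASM358476v1 assembly with TopHat2 2.1.1 and counted with featureCounts 1.6.2, per the methods and the submitters' processing notes. The deposited values are raw read counts per gene, not normalized or filtered by the authors. A gene needed 30 reads in sum to be tested. Library sizes were scaled by TMM, and edgeR 4.0.16 (glmQLFit, glmQLFTest, R 4.3.3) was fitted to all 17290 genes with season as the only term. Adjusted p values are Benjamini-Hochberg over all of these genes. Log2 CPM had a prior count of 2. Alternatives were the bear as a replicate block, DESeq2 1.42.0 with and without it, limma 3.58.1 voom, RLE, library totals, no filter, filterByExpr, each bear left out and the winter library of bear 1509 left out.

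Libraries were paired by animal number, since the methods state that each bear was sampled in both seasons. After removal of season means, the paired libraries of a bear correlated at 0.0156 to 0.435. Libraries of different bears correlated at a median of −0.0862 and at most 0.283, so the 2 ranges overlapped. In simulated counts for this comparison (17062 genes, 200 changed), edgeR recovered 57% of 2-fold and 95% of 4-fold changes, with 5 other calls. The simulation changed far fewer genes than were called in the data and drew every library independently, with no bear effect. These rates therefore do not give the share of changes recovered in the data.

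The 10 genes and the lists were chosen with earlier results of these data known, and the 10 pairs were set after values had been seen. Named genes were the 10, at most 3 lower and 2 higher of each list by fold change, partners of the 10, the 5 most similar profiles to MYH11 and RGS5, and a few list members named after their values were seen (such as CKM, HIGD1B, JAG1, MYOCD, SRF and RHOA). Symbols missing from the table (COX4I2, NOTCH1, NRARP, MYH7) and EGFL7, under 30 reads, were not analysed here. Some markers of other cell types are not reported here.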

Additional observations from a re-analysis of the deposited data

Results flagged for a closer look

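RGS5 in the winter library of bear 1509, at 214 CPM (7.74 log2 CPM), stood far from the other 5 winter libraries at 98.4 to 128 CPM. Its gap to the nearest, divided by the range of the 6, on the log2 scale was 0.661, above Dixon's 95% critical value for 6 samples. It was the only such value among the 20 sets of 6 libraries examined for the 10 genes, and chance gives about 1 in 20. The cause was not tested. The log2 fold change of RGS5 was −1.37 with the library and −1.58 without it.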

How the results depend on the processing

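The log2 fold changes of the 10 genes stayed negative under all 15 alternatives, 10 of 10 each time. Calls of lower genes numbered 7 when edgeR or DESeq2 used the replicate block, in DESeq2 without it and in limma voom, and 8 with library totals, with the 6 genes called in the report among them each time. In these fits 3493 to 3789 of all 17290 genes tested were called lower. Leaving out a bear gave 5 to 9 lower genes of the 10, 0 higher and a median of −0.94 to −0.80, beside 2715 to 3300 lower over all genes tested. The count of all genes called was 4154 at an adjusted p below 0.01 with the fold limits, against 3445 lower and 3386 higher in the report, and 5256 to 6495 with a bear left out. Library totals shifted the median of all genes by −0.0788 on the log2 scale. The log2 fold change of ABCC9 turned negative with library totals (−0.047), without bear 1316 (−0.012), without bear 1509 (−0.026) and without only its winter library (−0.008), and the cause was not tested. It ran from −0.026 to 0.098 with a bear left out, and its adjusted p was 0.58 to 0.971 over all alternatives. Among the named genes followed through the alternatives, the replicate block changed the calls of TAGLN, PDGFRB, HES1 and NDUFA4L2, with the values given there. Some named genes, such as RGS2, SRF and HIGD1B, were not followed in this way. In edgeR the vascular tone list had 6 lower genes with the block, against 5 without it. Which gene differed was not identified. Depth limits CNN1, with 7 reads in 1 library, and PPP1R14A, KCNMB1 and TBXA2R, with 3 or 4.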
